A study of Rattus norvegicus with 4 samples.

Results

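The genes described here encode the eukaryotic translation initiation factors (symbols starting with Eif) and elongation factors (symbols starting with Eef). They were chosen by symbol from the platform's probe annotation, leaving out the eIF2 kinases (Eif2ak) and the eIF4E transporter Eif4enif1. The rule itself uses no measured value, but it was set with earlier results of these data known. The rule found 51 genes among the 14497 genes tested, 39 initiation factor and 12 elongation factor genes. Each gene was read from its probe set of highest mean signal. The RNA was poly(A) RNA, and it came from hippocampal neurons of rat embryos in primary culture. Of the 4 cultures 2 had received Gld2 shRNA and 2, the controls, scrambled shRNA. Gld2, whose gene symbol is Tent2, is a cytoplasmic poly(A) polymerase, and the title states the purpose as profiling of poly(A) RNA after its knockdown. The strain, age, vector and length of treatment are not stated in the labels. Heat had released the RNA from a poly(U) Sepharose column, so a transcript's amount and its tail-dependent recovery cannot be told apart. In bulk cultures, fewer cells of a type and less RNA per cell cannot be told apart either. Nothing in the labels tells whether the 4 cultures were prepared separately, and the spread behind the p-values may thus be technical.

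Translation initiation brings a ribosome with its initiator tRNA to the start codon of an mRNA. eIF4E binds the cap, eIF4G and the helicase eIF4A join it as eIF4F, eIF3 links eIF4F to the small subunit, and eIF2 carries the tRNA in a GTP-bound form that eIF2B regenerates. During elongation eEF1A delivers each aminoacyl-tRNA and eEF2 moves the ribosome along. In neurons these steps are a known point of control of local protein synthesis at synapses, through phosphorylation of eIF2, of eEF2 and of the eIF4E-binding proteins, and they act on mRNAs whose poly(A) tails recruit poly(A)-binding protein to eIF4G.

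Sequence around the gene starts is shown for 2 sets of genes whose values follow, because each holds a match to the letters of a known regulatory element. RefSeq windows of assembly GRCr8, from 250 bases before to 50 bases after the annotated start, were found for 45 of the 51 genes, some with more than 1 start (49 windows). The first element is the core of the interferon-stimulated response element, GAAA repeated after a gap of any 2 bases, searched on both strands. It occurred in 3.92% of all 33469 windows and in 4 of the 49 windows here, from 4 of the 45 genes. It is printed beside that of Eif2ak2, the interferon-inducible eIF2 kinase PKR, in 30 bases with the motif or its complement in capitals.
Eif2ak2 (chr6:21941128-21941157, plus strand): agtccgccggGAAAACGAAAcagagagaac
Eif2a (chr2:144911347-144911376, plus strand): agcgcatgggTTTCTCTTTCcgggacaaga
Eif2s3 (chrX:62933679-62933708, minus strand): agccgagcatTTTCCTTTTCtctctgagca
Eif3k (chr1:93397485-93397514, minus strand): ttccaccacgTTTCTTTTTCttccggtcct
Eif6 (chr3:164791438-164791467, minus strand): ggaggaggcgGAAACGGAAAgctagttacg
The motif lay at -16 to -7 from the annotated start in Eif2ak2, -3 to 7 in Eif2a, 2 to 11 in Eif2s3, -17 to -8 in Eif3k and -47 to -38 in Eif6, counted with no position 0.

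The second element is the pyrimidine run of 5′ terminal oligopyrimidine (TOP) mRNAs, whose translation mTOR controls. A list of 9 translation factor genes with TOP mRNAs had 8 genes among the 51, and 4 of these had a RefSeq window. The longest run that begins with C and goes on with at least 5 bases that are each C or T was searched on the coding strand from 25 bases before to 20 bases after the annotated start, and is in capitals. Such a run occurred in 31.2% of all windows and in 20 of the 49 windows here, from 20 of the 45 genes.
Eef1a1 (chr8:88225050-88225094, minus strand): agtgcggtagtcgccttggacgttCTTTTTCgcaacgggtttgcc
Eef1b2 (chr9:72074066-72074110, plus strand): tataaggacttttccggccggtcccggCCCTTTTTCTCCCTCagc
Eef1g (chr1:215289790-215289834, plus strand): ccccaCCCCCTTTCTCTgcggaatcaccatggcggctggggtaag
Eef2 (chr7:9189219-9189263, minus strand): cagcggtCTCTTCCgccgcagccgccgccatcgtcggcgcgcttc
The run began at -1 in Eef1a1, at 3 in Eef1b2, at -20 in Eef1g and at -18 in Eef2. None began at the annotated first base, where a 5′ terminal run would begin. In Eef1g and Eef2 the run ended at -9 and -12, before the annotated start and so outside the annotated mRNA. A match of letters is a description and shows no bound factor, and annotated starts can differ from those used in neurons.

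The targeted transcript was lower in the cultures labelled as knocked down. Tent2 read 9.50 and 9.35 with Gld2 shRNA and 10.73 and 10.67 with scrambled shRNA (log2 RMA values), 2.43-fold lower, with an adjusted p of 0.000754 by limma. Over all genes 594 (4.10%) passed an adjusted p under 0.05, 245 higher and 349 lower. The split of calls changed with the scaling. It was 558 higher and 1367 lower with arrays centred on the median of all probe sets. With arrays centred on the median of all genes tested, called centring on the named genes below, it was 218 higher and 94 lower. Gld2 shRNA replicate 2 stood farther from the controls than replicate 1 over all genes, with median absolute differences of 0.140 and 0.155 against 0.0919 and 0.0998, and over the 51 genes the values were 0.0866 and 0.0881 against 0.0860 and 0.0931. All 10 neuron markers had values above the 25th percentile of genes, as had all 8 astrocyte markers, while 4 of 8 microglia markers lay below it. So did 0 of 6 oligodendrocyte lineage, 1 of 8 fibroblast and vascular and 2 of 7 dividing cell markers. The mean of the neuron markers was 12.56 and 12.56 with Gld2 shRNA and 12.63 and 12.62 in the controls, with 9 of 10 differences below 0 and 0 past the threshold. The mean of the astrocyte markers was 12.07 and 12.02 with Gld2 shRNA and 12.04 and 12.07 in the controls, and 1 of the 8, Gja1, fell (-0.39, adjusted p = 0.0351 by limma). The mean of the microglia markers was 7.70 and 7.75 with Gld2 shRNA and 7.57 and 7.59 with scrambled shRNA. Of their 8 differences 7 were above 0, with a median of 0.13 and 0 past the threshold. Markers of the oligodendrocyte lineage, of fibroblast and vascular cells and of dividing cells had median differences of 0.02 each, with 0 past the threshold. The part of the marker lists in any value below was not tested.

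None of the 51 translation factor genes changed at the threshold. With p-values from limma adjusted over all 14497 genes, 0 were higher and 0 lower, against 4.10% of all genes called, 1.69% higher and 2.41% lower. At an unadjusted p under 0.05, 2 were higher and 7 lower, 17.6% of the 51 against 25.4% of all genes (9.24% higher and 16.2% lower). The log2 differences, always the Gld2 shRNA mean minus the scrambled shRNA mean, ran from -0.28 (Eef1e1) to 0.26 (Eif2s1), that is from 1.21-fold lower to 1.2-fold higher. Beyond 1.2-fold there were 1 of the 51 genes and 13.0% of all genes, and beyond 1.3-fold 0 of the 51 and 4.48% of all. The 95% confidence intervals of all 51 lay inside 1.5-fold in either direction, and those of 47 lay inside 1.3-fold. The lowest bound was -0.44 (Eif2d) and the highest 0.48 (Eif2s1). In simulated data of this design the test recovered 0% of genes changed 1.2-fold and 72% of those changed 1.5-fold. The simulated data gave 143 calls against 594 in these data, so the cutoff set by the adjustment was stricter there. Differences of the size seen here may thus have been below what the test could call, but the simulation does not settle it. Other settings called a few of the genes and more genes in all. With a prior variance tied to signal level 6 passed (15.4% of all genes), without genes under the median level 6 of 47 (22.0%), without those under the 25th percentile 1 (11.9%), with arrays centred on all probe sets 2 (13.3%) and without Gld2 shRNA replicate 1 again 2 (18.5%).

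**Figure D1:**
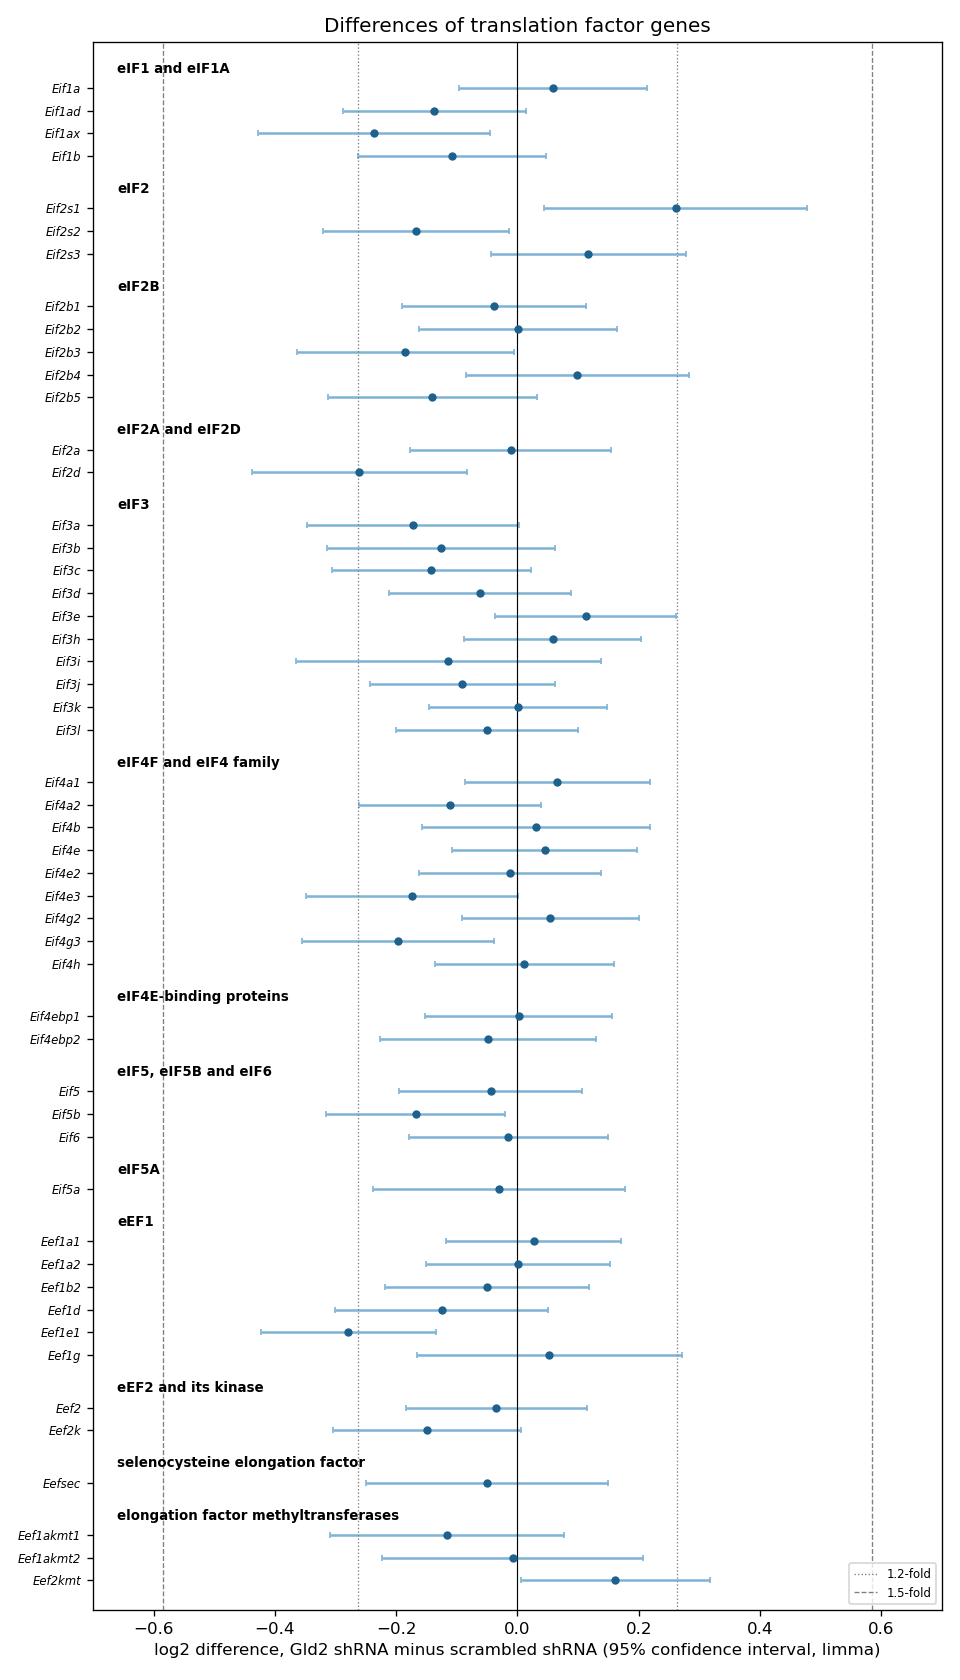
Log2 difference (Gld2 shRNA minus scrambled shRNA, x axis) of each of the 51 translation factor genes, grouped by complex, with 95% confidence intervals from limma. Points lie between -0.28 and 0.26, and every interval stays inside the dashed lines at 1.5-fold.

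The 51 genes had a median difference of -0.04, against -0.02 over all genes. Of their values 33 lay below 0 (64.7%, against 53.8% of all genes) and 18 above. It was -0.01 beside 0.00 over all genes with cyclic loess, -0.07 beside -0.04 with centring on all probe sets and 0.03 beside 0.05 with centring on the named genes. Each centring moves the differences of all genes by the same amount. In 26 genes both Gld2 shRNA cultures lay under the control mean, in 12 both lay over it, and in 13 they lay on opposite sides. The groups did not overlap in 30 of the 51 genes (58.8%), near the 58.5% of all genes. Both Gld2 shRNA cultures were above both controls in 9 genes (24.0% of all genes) and below both in 21 (34.5% of all genes). Read against the control mean, the median of the 51 was -0.01 in Gld2 shRNA replicate 1 (-0.02 over all genes) and -0.07 in replicate 2 (-0.01 over all genes). Replicate 2 lay under replicate 1 in 35 genes. Neither this count nor those by side of the control mean were made over all genes. The genes were unevenly spread over signal level, with 14 each in deciles 9 and 10 and 0 in deciles 1 to 3. In decile 10 their median was 0.01 and that of all genes 0.01, and in decile 6, which held 8 of them, it was -0.13 beside -0.10.

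**Figure D2:**
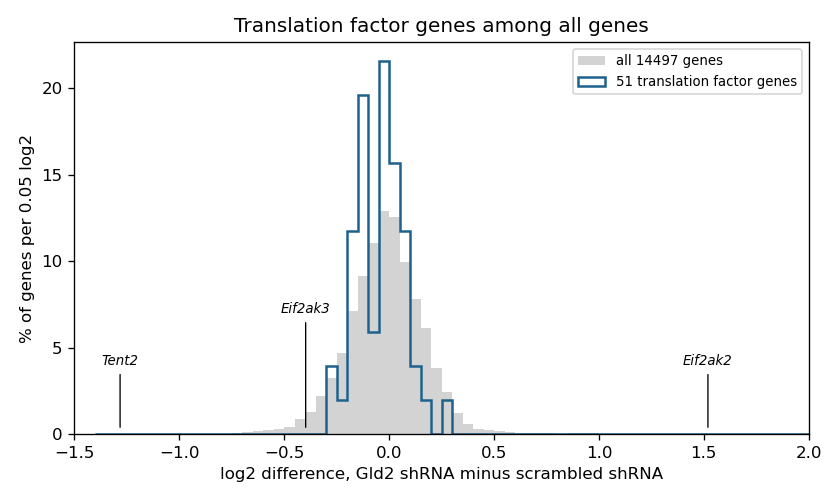
Share of genes (y axis, percent per 0.05 log2) by log2 difference (x axis) for the 51 translation factor genes (blue outline) and all 14497 genes (grey). The 51 genes lie between -0.28 and 0.26, while Tent2, Eif2ak3 and Eif2ak2 are marked outside that range; 33 genes above 2 are beyond the axis.

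The eIF2 complex held both the highest value among the 51 and a value below 0. eIF2 is a trimer of alpha, beta and gamma subunits, and phosphorylation of alpha reduces initiation in general. Eif2s1, the alpha subunit, read 11.44 and 11.28 with Gld2 shRNA and 11.02 and 11.18 with scrambled shRNA, a difference of 0.26 (standard error 0.0886, adjusted p = 0.147 by limma). Both Gld2 shRNA cultures lay above both controls, but the nearest pair was only 0.10 apart and Gld2 shRNA replicate 1 was the higher. Eif2s3, the gamma subunit that binds GTP and the tRNA, read 12.58 and 12.48 against 12.42 and 12.40, a difference of 0.12 that did not pass (adjusted p = 0.310 by limma). Eif2s2, the beta subunit, lay on the other side, at 11.28 and 11.33 with Gld2 shRNA and 11.50 and 11.45 with scrambled shRNA. Its difference was -0.17 (adjusted p = 0.172 by limma), and the groups did not overlap. The signs of the 3 subunits were kept under both centrings, cyclic loess and removal of the gene length trend. Without 1 culture, Eif2s1 ran from 0.18 to 0.34 and Eif2s2 from -0.19 to -0.14.

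eIF2B, the exchange factor that reloads eIF2 with GTP, had 5 subunit genes, of which 0 passed. Their median was -0.04 beside -0.02 over all genes, and 0.03 beside 0.00 with cyclic loess. Eif2b3, the gamma subunit, read 10.30 and 10.35 with Gld2 shRNA and 10.58 and 10.44 with scrambled shRNA. Its difference was -0.19 with an adjusted p of 0.187 by limma, the lowest of the 5, and both knockdown cultures lay under both controls. Eif2b5, which carries the catalytic site of exchange, stood at -0.14 and Eif2b4 at 0.10, the highest of the complex. Eif2b1 (-0.04) and Eif2b2 (0.00) overlapped between groups. The regulatory subunits Eif2b1, Eif2b2 and Eif2b4, which sense phosphorylated eIF2, thus had intervals that included 0, as did Eif2b5.

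Eif2a and Eif2d encode factors that bring tRNA to the ribosome apart from eIF2, and Eif2d also takes part in ribosome recycling. Eif2d read 9.45 and 9.31 with Gld2 shRNA and 9.67 and 9.62 with scrambled shRNA. Both knockdown cultures lay under both controls, with Gld2 shRNA replicate 2 the lower. The difference was -0.26 with a 95% confidence interval from -0.44 to -0.08, and it did not pass (adjusted p = 0.104 by limma). It did pass without Gld2 shRNA replicate 1 (-0.33, adjusted p = 0.0354), and without replicate 2 it was -0.19 (adjusted p = 0.240). Eif2a read 9.49 and 9.39 against 9.48 and 9.43, a difference of -0.01 with overlapping groups.

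eIF1 and eIF1A, which act at start codon selection, and a relative were measured by 4 genes, none past the threshold. The genes Eif1 and Eif1ay had no value here. eIF1A, which holds the scanning ribosome open, is encoded by the near-identical genes Eif1a and Eif1ax, whose probe sets may share signal. Eif1ax read 10.19 and 10.06 with Gld2 shRNA and 10.43 and 10.30 with scrambled shRNA, a difference of -0.24 (adjusted p = 0.140 by limma). Its groups did not overlap, although the 2 cultures of each group were 0.12 to 0.13 apart. Eif1a read 10.77 and 10.69 against 10.66 and 10.68, a difference of 0.06, with Gld2 shRNA replicate 2 only 0.01 above the higher control. Eif1b, a copy of eIF1, stood at -0.11 and Eif1ad, which encodes a protein with an eIF1A domain, at -0.14. Both had knockdown values under both controls.

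eIF3, the large complex that holds the small subunit and recruits the mRNA, had 10 subunit genes here and 0 past the threshold. Their median was -0.08 beside -0.02 over all genes, with 7 values below 0 (70%, against 53.8% of all genes) and 3 above. The subunit genes Eif3f, Eif3g and Eif3m had no value here. Eif3a, the scaffold subunit, had the lowest value with all 4 cultures. It read 10.56 and 10.42 with Gld2 shRNA and 10.68 and 10.65 with scrambled shRNA, a difference of -0.17 (adjusted p = 0.199 by limma). Without Gld2 shRNA replicate 1 it was -0.24, with Eif3i lower at -0.26, and without Gld2 shRNA replicate 2 it was -0.11, with Eif3c also at -0.11. Eif3c, which shares the core with Eif3a, stood at -0.14, and Eif3b, a subunit of the mobile module with Eif3i, at -0.13. Eif3e, another core subunit, had the highest value, at 11.12 and 11.15 with Gld2 shRNA and 11.05 and 11.00 with scrambled shRNA. That difference was 0.11 (adjusted p = 0.296 by limma), with no overlap of the groups. Eif3i was the most variable of the 51, at 9.15 and 8.86 with Gld2 shRNA against 9.12 and 9.12 with scrambled shRNA. Its value of -0.11 came from Gld2 shRNA replicate 2, since replicate 1 lay above both controls. Eif3d (-0.06), Eif3h (0.06), Eif3j (-0.09), Eif3k (0.00) and Eif3l (-0.05) made up the rest. Eif3h had a dimmer second probe set with a difference of -0.08, opposite in sign to the one used.

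**Figure D3:**
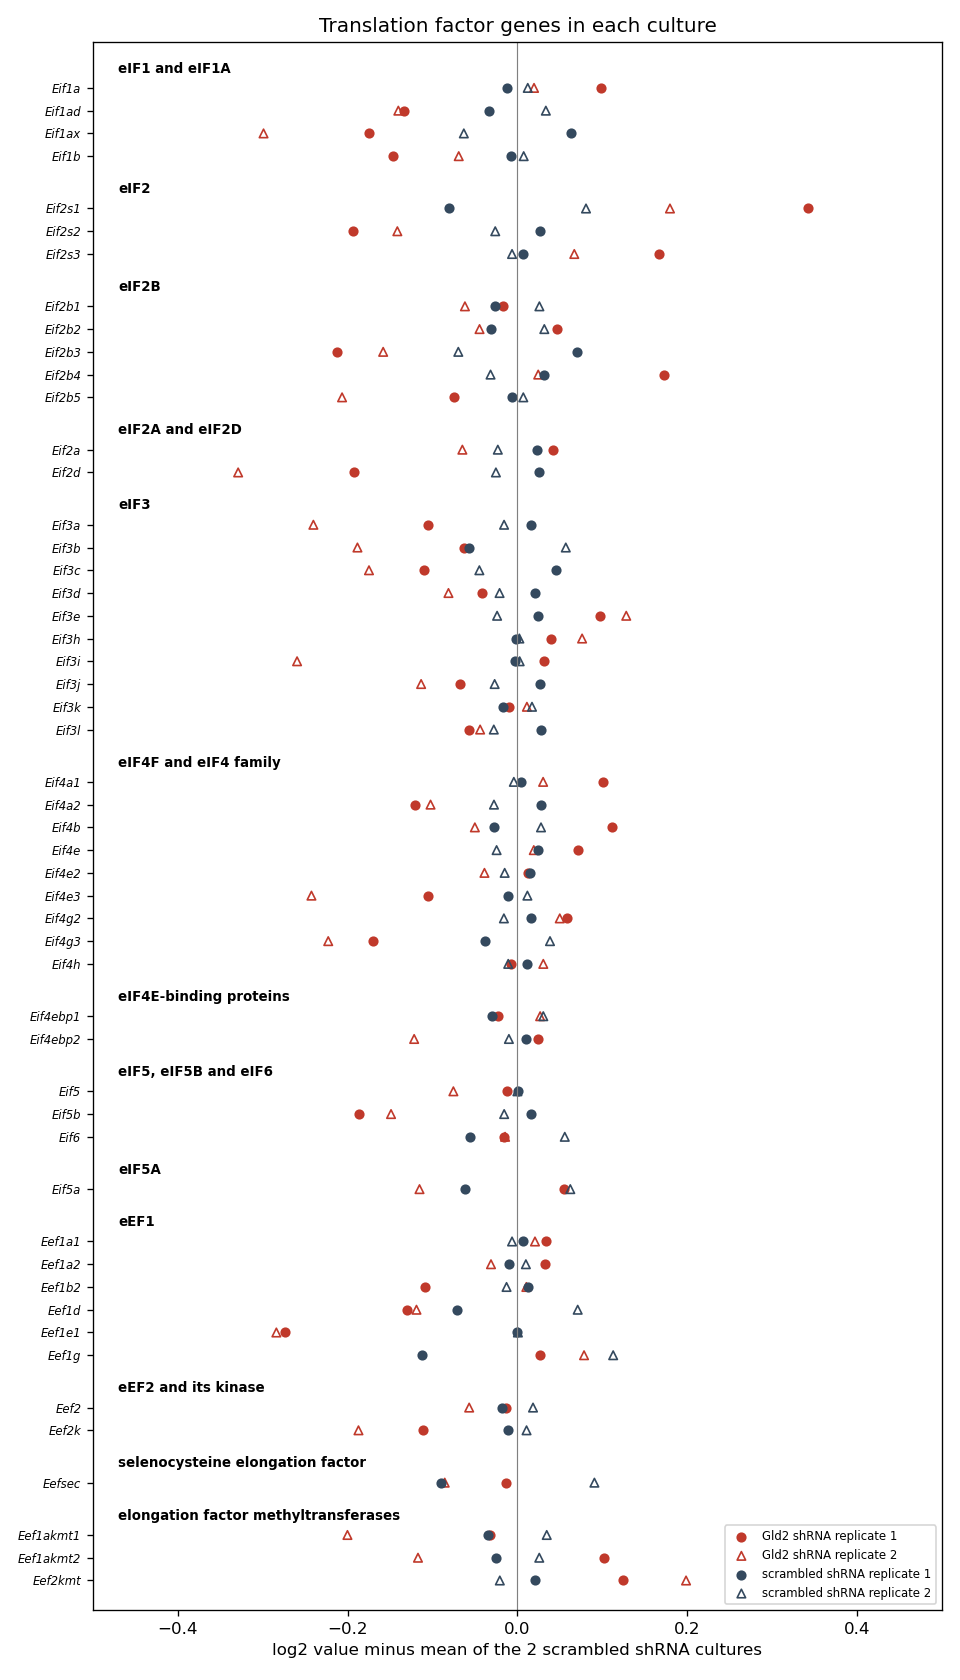
Log2 value of each translation factor gene in each of the 4 cultures minus the mean of the 2 scrambled shRNA cultures (x axis), grouped by complex. Both Gld2 shRNA cultures lie 0.27 and 0.28 under the control mean for Eef1e1 and 0.18 and 0.34 over it for Eif2s1, while in 13 genes the Gld2 shRNA cultures fall on opposite sides of the control mean.

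The cap-binding complex and its relatives were measured by 9 genes, 0 past the threshold, with a median of 0.01 beside -0.02 over all genes. Eif4g1, Eif4a3 and Eif4e1b had no value here, so the scaffold eIF4G1 was not covered. Eif4e, which binds the cap, read 10.90 and 10.85 with Gld2 shRNA and 10.86 and 10.81 with scrambled shRNA, a difference of 0.05 with overlapping groups. The 95% confidence interval of Eif4e ran from -0.11 to 0.20. Its relative Eif4e2, which competes for the cap and represses translation, stood at -0.01. Eif4e3, another cap-binding relative, stood at -0.17 (adjusted p = 0.198 by limma), reading 9.19 and 9.05 against 9.28 and 9.30.

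The helicase paralogs of eIF4F had values on opposite sides of 0, also under each scaling tried. Eif4a1 read 13.01 and 12.94 with Gld2 shRNA and 12.91 and 12.90 with scrambled shRNA, a difference of 0.07. Eif4a2, the paralog abundant in brain, read 12.16 and 12.18 against 12.31 and 12.25, a difference of -0.11. Neither passed (adjusted p = 0.541 for Eif4a1 and 0.30 for Eif4a2 by limma), and the difference between the paralogs was not tested. Among scaffolds, Eif4g3 encodes a paralog of eIF4G1 and Eif4g2 encodes DAP5, which lacks the part that binds eIF4E. Eif4g3 read 11.16 and 11.11 with Gld2 shRNA and 11.29 and 11.37 with scrambled shRNA, a difference of -0.20 that did not pass (adjusted p = 0.138 by limma). Over the alternatives it ran from -0.23 to -0.07, the latter with the gene length trend removed, and it passed with a prior variance tied to signal level (adjusted p = 0.0147) and with only the genes above the median level tested (0.0369). Eif4g2 stood at 0.05, reading 11.36 and 11.35 against 11.32 and 11.28. The helicase cofactors Eif4b (0.03) and Eif4h (0.01) overlapped between groups.

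The eIF4E-binding proteins, which block assembly of eIF4F until mTOR phosphorylates them, were measured by 2 genes, of which 0 passed. Eif4ebp1 read 11.48 and 11.53 with Gld2 shRNA and 11.47 and 11.53 with scrambled shRNA, a difference of 0.00 with a 95% confidence interval from -0.15 to 0.16. Eif4ebp2, the main form in brain, read 11.31 and 11.17 against 11.30 and 11.28, a difference of -0.05 with an interval from -0.23 to 0.13. In both genes the groups overlapped.

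Subunit joining is carried out by eIF5, which makes eIF2 hydrolyse GTP, and eIF5B, a GTPase that brings in the large subunit. Eif5b read 9.84 and 9.88 with Gld2 shRNA and 10.04 and 10.01 with scrambled shRNA, a difference of -0.17 (adjusted p = 0.163 by limma) with no overlap. Eif5 stood at -0.04, and Eif6, which keeps large subunits from joining too early, at -0.02 with values of 10.24 and 10.24 against 10.20 and 10.31. Eif5a, the hypusine-bearing factor that relieves stalled ribosomes, read 12.85 and 12.68 against 12.74 and 12.86, a difference of -0.03 with overlapping groups.

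The eEF1 genes of the elongation machinery proper had 0 past the threshold. Eef1a1, the common form of the tRNA carrier, read 13.61 and 13.60 with Gld2 shRNA and 13.58 and 13.57 with scrambled shRNA. The difference was 0.03 with a 95% confidence interval from -0.12 to 0.17, and the highest value of any probe set on these arrays was 14.2 to 14.3. Its second probe set gave 0.08. Processed copies of Eef1a1 are common in mammalian genomes, so its signal may hold more than 1 locus. Eef1a2, the form that replaces it in mature neurons and muscle, averaged 11.97 ± 0.0447 (SD, n = 2) with Gld2 shRNA and 11.97 ± 0.0141 (SD, n = 2) in the controls, a difference of 0.00. The exchange factor subunits Eef1b2 (-0.05), Eef1d and Eef1g (0.05) did not pass. Eef1d read 9.64 and 9.65 with Gld2 shRNA and 9.70 and 9.84 with scrambled shRNA, a difference of -0.12 with a 95% confidence interval from -0.30 to 0.05, and both knockdown cultures lay under both controls. For Eef1g the controls alone spread from 12.27 to 12.50, around both knockdown values.

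Eef1e1 came closest to the threshold of the 51. It encodes a protein of the multi-tRNA synthetase complex, also known as AIMP3 or p18, and shares its name with the elongation factor through sequence likeness to eEF1 subunits. Eef1e1 read 10.66 and 10.65 with Gld2 shRNA and 10.93 and 10.93 with scrambled shRNA, so both knockdown cultures lay well under both controls, 0.27 from the nearest. The difference was -0.28 (standard error 0.0588, 95% interval from -0.42 to -0.13), 1.21-fold lower, and it missed the threshold (adjusted p = 0.0615 by limma). It passed without Gld2 shRNA replicate 1 (adjusted p = 0.0433), with arrays centred on all probe sets (0.0195), with only the genes above the median level tested (0.00773), with only those above the 25th percentile tested (0.0255) and with a prior variance tied to signal level (0.00196). Without the other cultures the adjusted p by limma ran from 0.133 to 0.387, while the difference stayed between -0.28 and -0.27.

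eEF2, the translocase, and its kinase are a known switch of elongation in neurons, since the calcium-dependent kinase Eef2k inactivates eEF2. Eef2 read 12.93 and 12.89 with Gld2 shRNA and 12.92 and 12.96 with scrambled shRNA, a difference of -0.04 with overlapping groups. Eef2k read 9.25 and 9.18 against 9.35 and 9.37, a difference of -0.15 (adjusted p = 0.207 by limma), with both knockdown cultures under both controls. Eefsec, which delivers selenocysteine, stood at -0.05, between controls that were themselves 0.18 apart. Of 3 methyltransferases that modify elongation factors, Eef2kmt had the highest value. It read 8.33 and 8.41 with Gld2 shRNA and 8.23 and 8.19 with scrambled shRNA, a difference of 0.16 (adjusted p = 0.188 by limma). Eef1akmt1 stood at -0.12 and Eef1akmt2 at -0.01, both with overlapping groups.

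The genes of the TOP list and those with the interferon response motif can be read against these values. The 8 genes of the TOP list had a median of 0.03, with 5 above 0, 3 below and 0 past the threshold. They ran from -0.12 (Eef1d) to 0.11 (Eif3e), neither of which had a printed window. The 4 with printed windows stood at 0.03 (Eef1a1), -0.05 (Eef1b2), 0.05 (Eef1g) and -0.04 (Eef2). Of the genes with the interferon response motif, Eif2s3 stood at 0.12, Eif3k at 0.00, Eif2a at -0.01 and Eif6 at -0.02. Eif2ak2, with the same motif, rose. It read 10.86 and 10.69 with Gld2 shRNA and 9.19 and 9.33 with scrambled shRNA, a difference of 1.52 with a 95% confidence interval from 1.31 to 1.73. The rise was 2.87-fold, with an adjusted p of 0.000696 by limma, and it stayed past the threshold whichever culture was left out.

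Of the kinases that act on eIF2, Eif2ak2 rose, Eif2ak3 fell, and Eif2ak1 and Eif2ak4 did not pass. Of 7 genes of eIF2 kinases, phosphatase subunits and the GCN2 inhibitor Impact, 1 rose and 1 fell, against 4.10% of all genes called. Eif2ak3, the kinase PERK of the endoplasmic reticulum, read 9.75 and 9.66 with Gld2 shRNA and 10.11 and 10.09 with scrambled shRNA, a difference of -0.40 (adjusted p = 0.0353 by limma), or 75.9% of the control level. It was not called without Gld2 shRNA replicate 2 (adjusted p = 0.0837 by limma) or without either control, replicate 1 (0.310) or 2 (0.253). The haem-regulated kinase Eif2ak1 stood at 0.21 (adjusted p = 0.123 by limma) and the amino acid sensor Eif2ak4 (GCN2) at -0.23 (adjusted p = 0.0922 by limma). Ppp1r15b, which targets a phosphatase to eIF2, stood at -0.37 (adjusted p = 0.0730 by limma), and its stress-induced relative Ppp1r15a at -0.03.

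Among 18 measured partners of the cap-binding complex and mTOR signalling, 3 fell, 0 rose and 15 did not pass, against 2.41% of all genes called lower and 1.69% higher. Cyfip2 encodes a partner of the Fmr1 protein that also belongs to the WAVE actin complex. Cyfip2 read 11.69 and 11.65 with Gld2 shRNA and 12.27 and 12.22 with scrambled shRNA. Its difference was -0.57, 67.2% of the control level (adjusted p = 0.00926 by limma). Fmr1, the RNA-binding protein FMRP, read 9.23 and 9.11 against 9.61 and 9.58, a difference of -0.42 (adjusted p = 0.0356 by limma). Mknk1, a kinase of eIF4E, read 10.12 and 10.02 against 10.52 and 10.49, a difference of -0.44 (adjusted p = 0.0296 by limma), and the related Mknk2 stood at -0.07. The mTOR kinase gene Mtor (-0.21) and its partner Rptor (-0.20) did not pass, nor did Cyfip1 (-0.18) or the eIF4A inhibitor Pdcd4 (0.17). Eif4enif1, the eIF4E transporter, stood at -0.05. Without scrambled shRNA replicate 1 or replicate 2 the falls of Cyfip2, Fmr1, Mknk1 and Eif2ak3 were not called, with adjusted p from 0.124 to 0.310 by limma. Without Gld2 shRNA replicate 2, and with centring on the named genes, Cyfip2 was still called and Fmr1, Mknk1 and Eif2ak3 were not. The same was so when unnamed probe sets were tested too, and without moderation neither these genes nor Eif2ak2 passed. No sign changed.

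**Figure D4:**
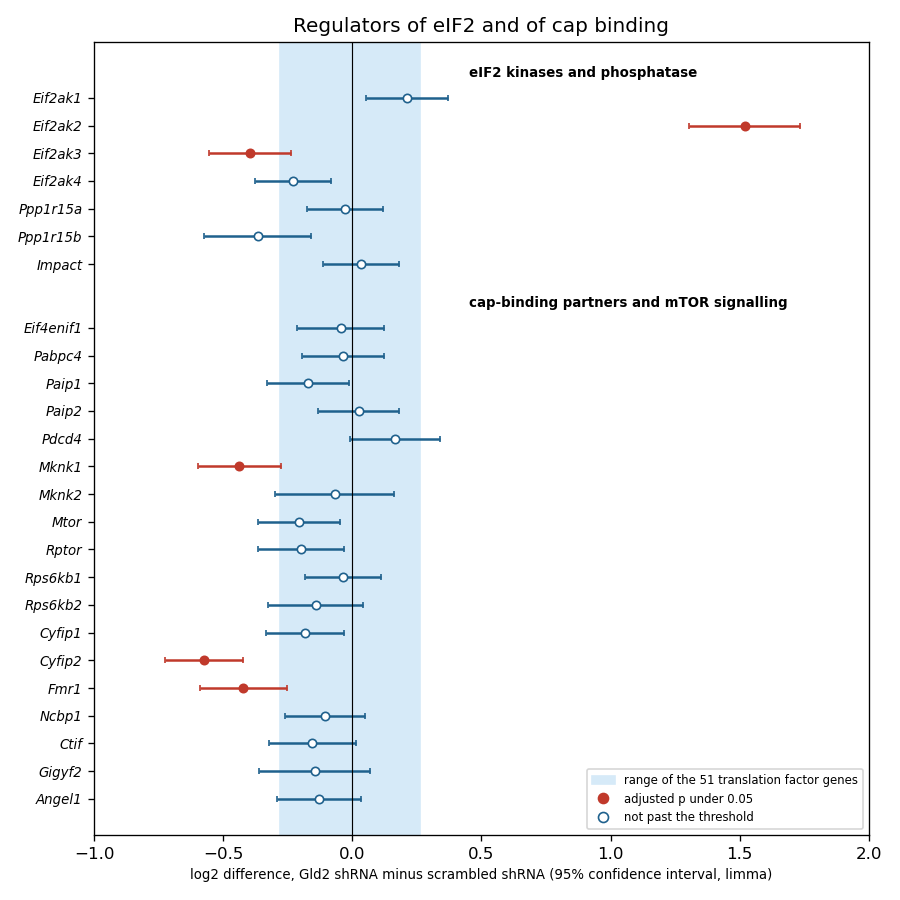
Log2 difference (Gld2 shRNA minus scrambled shRNA, x axis) with 95% confidence intervals from limma for genes of eIF2 kinases and phosphatase and of cap-binding partners and mTOR signalling. Eif2ak2 lies at 1.52, while Eif2ak3, Mknk1, Cyfip2 and Fmr1 lie between -0.57 and -0.40, outside the shaded range of the 51 translation factor genes. Ppp1r15b, not past the threshold, also lies outside that range at -0.37.

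The other steps of translation had 0 genes past the threshold, against 4.10% of all genes, a share at which lists this short hold few calls or none. They were 7 genes of termination, recycling and ribosome rescue (median -0.09, led by Gspt2 at -0.16 with the smallest p), 3 helicase and reinitiation genes (median -0.14), 8 genes of diphthamide and hypusine synthesis (-0.03) and 6 mitochondrial translation factor genes (-0.12). In the last 3 lists the smallest p belonged to Mcts1, a reinitiation and recycling factor (-0.23, adjusted p = 0.20 by limma), Dph6, an enzyme of diphthamide synthesis (-0.14, adjusted p = 0.217), and Gfm2, which recycles mitochondrial ribosomes (-0.17, adjusted p = 0.288). Dhps (0.04) and Dohh (0.07), which make the hypusine of eIF5A, did not pass, nor did Etf1 (-0.05) and Gspt1 (-0.04), the release factors. Over the 6 lists of other pathway genes, 41 of 49 values lay below 0, against 53.8% of all genes, with a median of -0.11. Their genes had a median length of 32901 bp in the genome, that of the 51 was 16101 bp and that of all genes 18043 bp. Over all genes length decile 10 had a median difference of -0.12 and decile 1 of 0.04. Signal level differed too, with a median of 10.28 in the 6 lists and 9.17 over all genes. Level deciles 6, 7 and 8 had median differences of -0.10, -0.10 and -0.08 over all genes. The parts of length and of level in these values were not tested.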

How the data were processed

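The data are 4 whole-transcript Affymetrix arrays of biotin-labelled poly(A) RNA, thermally eluted from poly(U) Sepharose, per the labels' protocols. The authors made the deposited log2 values with RMA and affy, per the submitters' processing notes. RMA makes array distributions alike, so a shift shared by all genes cannot be seen. RMA settings, versions and detection calls are not stated, and precision is limited by the number of arrays.

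Of 28826 probe sets, 15209 had 1 gene symbol, 306 several and 13311 none, giving 14497 genes. Of the 51 translation factor genes, 2 had more than 1 probe set, and 50 identifiers matched the RefSeq table of GRCr8. No low-value filter was applied, so all 51 were tested. Groups were compared with limma 3.58.1 (lmFit, eBayes) under R 4.3.3 by two-sided tests, Benjamini-Hochberg adjusted over all genes at a threshold of 0.05, on 2 residual and 3.96 prior degrees of freedom. Tested on simulated data of this design (14497 genes, 50 changed at each fold), the fit made 7 false calls among 143.

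The members and lists were chosen with earlier results of these data known. Genes described singly were Tent2, Eif2ak2, and members and pathway genes past the threshold. In each complex they were the extremes and the smallest p, and in each pathway list the smallest p, with other members completing a complex. Other pathway genes and Gja1 were named after their values were seen. Alternatives were other variance priors, level filters, array scalings, probe set rules, a block by title digit, leaving out cultures, no moderation and removal of a gene length trend. Centring on the named genes used the median of all genes tested. That centring and both sequence motifs were chosen after the data were seen.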

Additional observations from a re-analysis of the deposited data

How the results depend on the processing

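Counts moved more than single values. Genes past the threshold numbered 594, and 2232 with a level-dependent prior variance, 1596 without genes under the median level, 1297 without those under the 25th percentile, 1925 with median centring, 312 with centring on the named genes, 313 over all probe sets and 1 without moderation. Leaving out 1 culture gave 85 to 2689. Translation factor genes past the threshold, 0 in the report, numbered 6 with the level-dependent prior (1 higher, 5 lower, beside 15.4% of all genes), 6 of 47 without genes under the median level (1 higher, 5 lower, beside 22.0%), 1 without those under the 25th percentile (lower, beside 11.9%), 2 with median centring (lower, beside 13.3%) and 0 to 2 without 1 culture. The 6 were Eef1e1, Eif1ax, Eif2d, Eif2s1 and Eif4g3 in both cases, with Eif2s2 in the first and Eif5b in the second. Over the alternatives no translation factor gene that passed in any of them changed sign. Other variance priors, level filters, the block, no moderation and testing all probe sets leave a difference as it is. Only the remaining alternatives could turn a sign. Without moderation, which cannot alter its difference of -1.28, Tent2 lost the call (adjusted p = 0.221, limma's linear model). The final digits of the titles do not show a shared source. Used as a replicate block they gave 565 genes and 0 translation factor genes past the threshold, with a correlation of 0.14 between deviations of like-numbered cultures. With 2 cultures a group, differences of 1.2-fold were not detectable by this test in simulated data. Those data gave 143 calls against 594 here, so their cutoff was stricter.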
